A study of Homo sapiens with 8 samples.

Results

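The comparison described here sets TrxR1 knockout cells without glucose, which carry both stresses of the series, against control cells with it. The cells were LN229-TAZ(4SA), made from LN229, an established line of human glioblastoma, and by their name all groups carry a TAZ(4SA) construct. Double-stressed cells are those labelled KO_Glu-, knockout for TrxR1 and kept in glucose-deprived medium, and unstressed cells are those labelled EV_Regular culture, the control cells in regular medium. Each had 2 libraries, so that 4 of the 8 libraries of the series enter the comparison. The other groups, KO cells in regular medium and EV cells in glucose-deprived medium, carry a single stress each and stand beside it for reference. Regular medium was DMEM with 10% serum and 1% antibiotics, per the labels' protocols. Of 13730 genes in the deposited table, all 13057 whose log2 CPM averaged 0 or more over the 8 libraries were tested. CPM are read counts scaled to library size. The study asks how TrxR1 inhibition combined with glucose deprivation brings about the death of tumour cells.

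Column names of the samples read as glucose-deprived end in GlcN, letters that also abbreviate glucosamine and that the labels do not explain. Neither the number of knockout clones nor separate cultures for the libraries of a group are stated. Other differences between KO and EV cells and the loss of TrxR1 cannot be told apart, and the spread behind a p-value is that of these libraries alone, which may be technical. Library names a and b within a group carry no meaning.

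TrxR1, encoded by TXNRD1, is the cytosolic enzyme that uses NADPH to keep thioredoxin reduced, and thioredoxin in turn reduces disulfide bonds in proteins and in peroxiredoxins. Glucose feeds the pentose phosphate pathway, a main source of that NADPH, so both stresses bear on the same supply of reducing power, and a build-up of disulfides in cells that import much cystine is the setting known as disulfidptosis. Misfolded cytosolic proteins call up the heat shock genes through HSF1, oxidised KEAP1 releases NRF2 to raise antioxidant genes, and shortage of amino acids or stress in the endoplasmic reticulum raises ATF4 and CHOP targets.

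Libraries held 70083018 to 107229069 reads in the table, and 1 read was worth 0.00948 to 0.0143 CPM. Across genes, libraries correlated at r = 0.997 within the unstressed and within the double-stressed pair and at 0.960 to 0.963 between them, where genes are not independent replicates. The leading principal component, with 86.6% of the variance, placed the double-stressed libraries at 34.2 and 31.6 and the unstressed ones at -35.2 and -34.8. It placed the deprived EV libraries at 37.3 and 36.6 and those of KO cells in regular medium at -35.4 and -34.4. Libraries were thus split by medium on this component, and the distance was not particular to the double stress. TXNRD1 itself (chromosome 12, 104215779 to 104350307 on GRCh38) stood at 263 and 261 CPM in unstressed and 370.4 and 351 CPM in double-stressed libraries, against 245 and 249 CPM in KO cells in regular medium and 509 and 493 CPM in deprived EV cells. Its mRNA was thus higher in the double-stressed cells, by 0.46 ± 0.036 on the log2 scale (SE; limma, adjusted p = 8.03e-07), and a total per gene does not show whether the edited part or the protein was lost. WWTR1, the gene of TAZ, chosen after its values were seen, had means of 362 and 308 CPM (-0.23, adjusted p = 1.35e-04). Of 16 glial and glioma markers 12 were tested, with the stem cell factor SOX2 at 54.3 and 56.0 CPM in unstressed cells and NES at 787 and 788 CPM, whereas GFAP lay below the filter. Of 10 leukocyte markers 1 was tested, the lysosomal CD68, which many cell types express, and of 8 epithelial markers 4, with EPCAM and CDH1 not in the table.

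Most of the measured transcriptome differed between double-stressed and unstressed cells, mostly by small amounts. Limma called 4727 genes higher (36.2%) and 4929 lower (37.7%) at an adjusted p under 0.05. In 9654 of these 9656 genes the unstressed and double-stressed libraries did not overlap. With 2 libraries a group this nearly follows from the call, and it adds no support to it. Counts of list members called in this comparison are to be read beside the 36.2% and 37.7% of all genes. The median log2 difference over all genes tested was -0.011, and the median size of a difference 0.31. When libraries were instead centred on the cytosolic ribosomal protein genes, which shifts all differences by 0.23 on the log2 scale, the split became 2716 higher and 7420 lower, so that small differences have a direction only relative to the scaling. Large changes were mainly rises. By 2-fold or more 716 genes rose and 306 fell, by 4-fold or more 136 rose and 20 fell, and by 8-fold or more 42 rose and 2 fell, TXNIP and the connexin gene GJA5, the latter chosen after its values were seen. The median size of a difference from the same unstressed libraries was 0.074 in KO cells in regular medium and 0.34 in deprived EV cells.

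**Figure D1:**
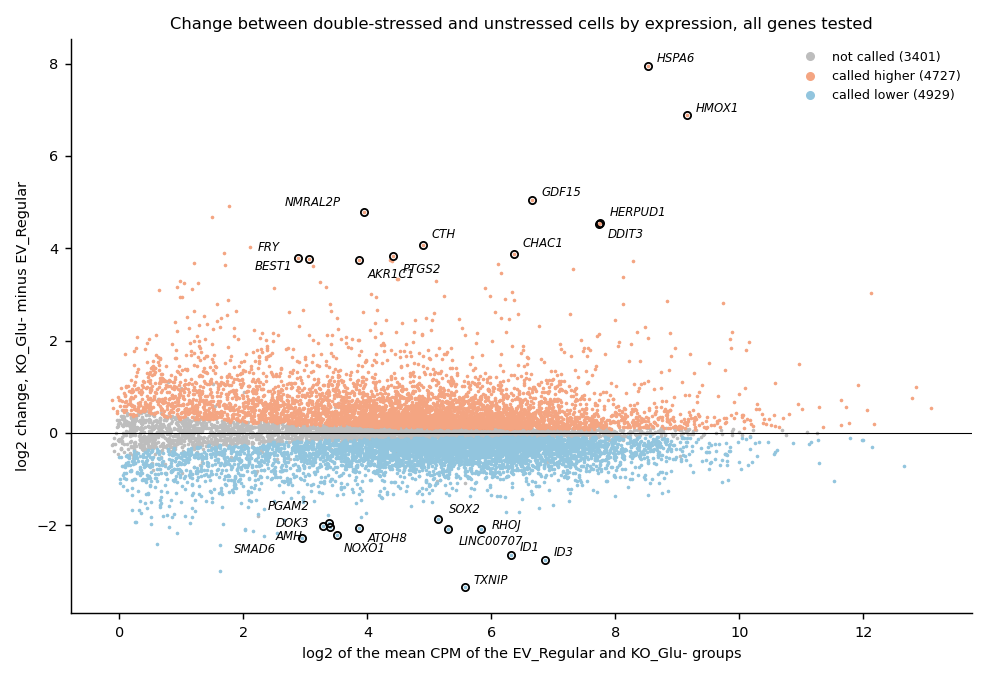
Each point is 1 of the 13057 genes. The x axis gives the log2 of the mean CPM of the double-stressed and unstressed groups. The y axis gives the log2 difference, double-stressed minus unstressed. HSPA6 and HMOX1 stand highest at 7.96 and 6.88, and TXNIP lowest of the labelled genes at -3.35.

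The tallest rises belonged to genes of different stress pathways. HSPA6, an inducible HSP70 chaperone, rose 249-fold and HMOX1, heme oxygenase 1, 118-fold. GDF15, a secreted stress cytokine, had 6.24 and 5.45 CPM in unstressed and 164 and 228 CPM in double-stressed libraries (log2 difference 5.04 ± 0.14, adjusted p = 3.28e-10). Next came NMRAL2P, a pseudogene known as an NRF2 target (4.80), HERPUD1, a factor of degradation at the endoplasmic reticulum (4.54), and DDIT3, which encodes CHOP (4.53). CTH, which makes cysteine from cystathionine, rose by 4.07, and CHAC1, which breaks down glutathione, by 3.87. FRY, chosen by the size of its rise, was the 1 gene that went from a mean under 1 CPM (1.02 and 0.91 CPM) to over 10 CPM (14.0 and 13.3 CPM).

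**Figure D2:**
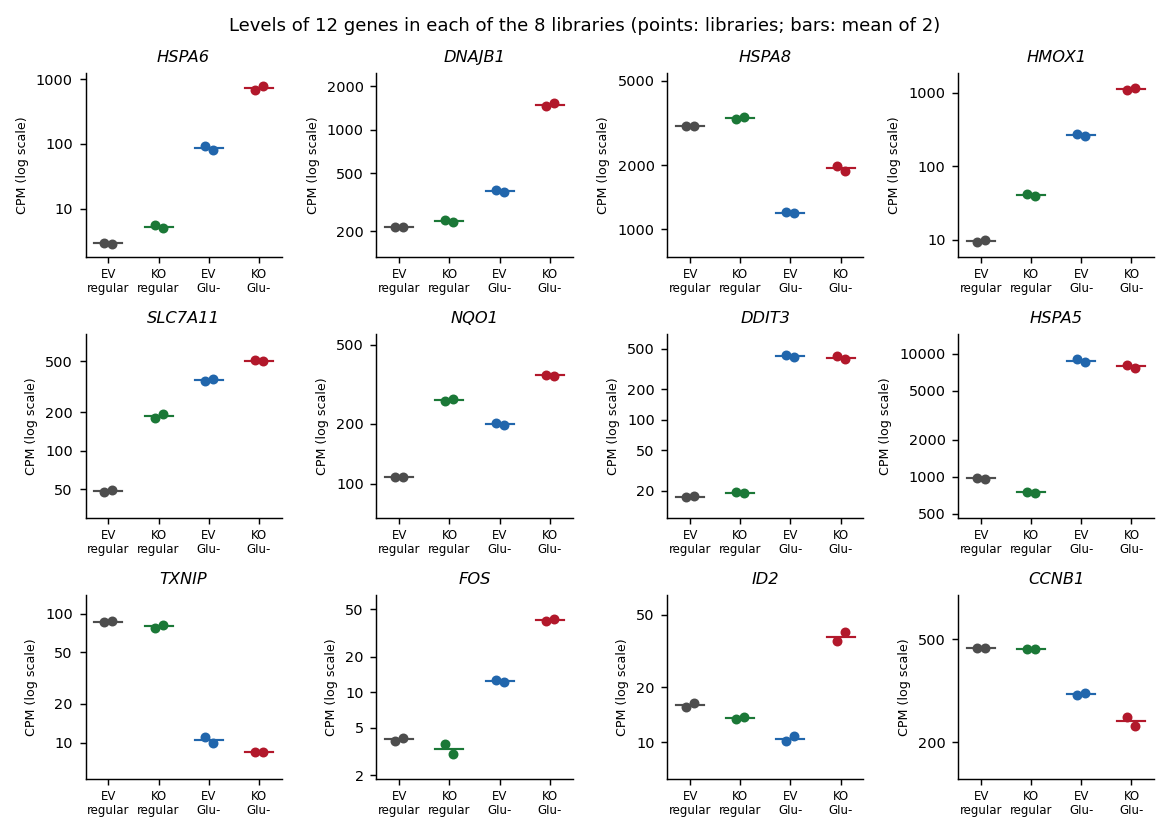
Levels of 12 genes in CPM on a log axis in each of the 8 libraries, grouped by label, with points for libraries and bars for the mean of 2. HSPA6 and DNAJB1 are highest in the double-stressed group, DDIT3 and HSPA5 are about equally high in both deprived groups, and TXNIP is low in both (HSPA8 was chosen after its values were seen).

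Among the cytosolic heat shock chaperones and co-chaperones, HSPA6, DNAJB1, BAG3 and HSPH1 were called above every other group. Of all 24 tested members 9 rose and 12 fell, with 5 and 17 under ribosomal centring, against 36.2% higher and 37.7% lower over all genes. HSPA6 (chromosome 1, 161524540 to 161526894) was measured at 2.96 and 2.88 CPM in unstressed libraries, 5.53 and 5.03 CPM in KO cells in regular medium, 92.8 and 80.3 CPM in deprived EV cells and 693 and 775 CPM in double-stressed cells. The double-stressed libraries were the highest and no groups overlapped. Its log2 difference was 7.96 ± 0.077 (adjusted p = 2.46e-13). Its sequence is close to that of HSPA1A and HSPA1B, genes not analysed here, and reads of the 3 may be mixed. DNAJB1 (chromosome 19, 14514769 to 14560391), the HSP40 partner that hands clients to HSP70, had 213 and 214 CPM in unstressed and 1447 and 1532 CPM in double-stressed libraries, a difference of 2.80 ± 0.037 (adjusted p = 1.75e-12). BAG3, a nucleotide exchange factor that links HSP70 to autophagy, went from 106 and 110.4 CPM to 417 and 435 CPM (1.97 ± 0.041). HSPH1, an HSP110 exchange factor, stood at 343 and 341 CPM in unstressed, 227 and 228 CPM in deprived EV and 712 and 753 CPM in double-stressed libraries (1.10 ± 0.034). It was thus lower than in unstressed cells with deprivation alone (-0.59) and higher with both stresses.

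The promoters of HSPA6 and DNAJB1 are shown because these genes rose most on this list and because heat shock elements, the sites HSF1 binds as repeats of GAA and TTC, can be read in them. Sequences are from RefSeq on GRCh38.p14 and give the 250 bases before the annotated start, 5′ to 3′ on the gene's strand. Motifs were searched in the table's windows, which also hold the first 50 bases after the start. Capitals mark heat shock cores, GAANNTTC or TTCNNGAA on either strand, and in HSPA6 also an antioxidant core, TGACNNNGC on either strand.
HSPA6 (chr1:161524290-161524539, plus strand): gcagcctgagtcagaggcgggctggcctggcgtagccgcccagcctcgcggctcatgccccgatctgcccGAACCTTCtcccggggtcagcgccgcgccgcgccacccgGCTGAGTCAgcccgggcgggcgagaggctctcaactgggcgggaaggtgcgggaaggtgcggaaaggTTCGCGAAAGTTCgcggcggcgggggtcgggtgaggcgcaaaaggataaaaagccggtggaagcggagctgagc
DNAJB1, entry 2 of 3 (chr19:14518398-14518647, minus strand): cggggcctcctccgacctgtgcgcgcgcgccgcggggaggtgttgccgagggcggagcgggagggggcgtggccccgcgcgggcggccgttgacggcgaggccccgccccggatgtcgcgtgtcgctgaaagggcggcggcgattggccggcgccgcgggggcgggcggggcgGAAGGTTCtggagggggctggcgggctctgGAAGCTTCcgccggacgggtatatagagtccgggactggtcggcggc
Counted from the start as 1, with -1 before it, HSPA6 holds cores from -180 to -173, -74 to -67 and -69 to -62, the last pair overlapping, and the antioxidant core, read on the other strand, from -141 to -133. DNAJB1 entry 2 holds cores from -77 to -70 and -47 to -40. Its entry 3 holds a core from 2 to 9, after the start, and its entry 1 holds no heat shock core. Over all genes tested with a promoter in the table, 1453 of 10461 (13.9%) held a heat shock core, against 14 of 21 genes of the heat shock list. The core was in 5 of 7 list genes that stood above every other group and in 6 of 10 that fell. A match of letters is a description and not a bound site.

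Over the whole heat shock list the median was -0.11. Deprived EV cells had 4 higher and 20 lower with a median of -0.62, where 37.5% of all genes were higher and 38.7% lower. KO cells in regular medium had 7 higher with a median of 0.11, against 3.87% of all genes higher. These comparisons share the unstressed libraries. Against deprived EV cells, which share the medium, the double-stressed cells had 20 genes higher with a median of 0.64, against 9.04% of all genes higher. The risers included, chosen after their values were seen, DNAJB4 (1.31), the HSP110 member HSPA4L (0.23) and the inducible HSP90 gene HSP90AA1 (0.21), the last pair of about the size of the ribosomal shift, and the falls the constitutive HSP70 gene HSPA8 (3073 and 3052 CPM to 1995 and 1885 CPM, -0.66) and the small heat shock gene CRYAB (-0.70). HSF1 itself was at -0.081 (adjusted p = 0.333). The list's share of all CPM was 1.30% in unstressed, 0.815% in deprived EV and 1.47% in double-stressed cells. The subunits of CCT, the chaperonin that folds actin and tubulin, were lower in 7 of 8 cases (median -0.30), from CCT6A at -0.42 to CCT8 at -0.20, while TCP1 was at -0.036 (adjusted p = 0.392).

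**Figure D3:**
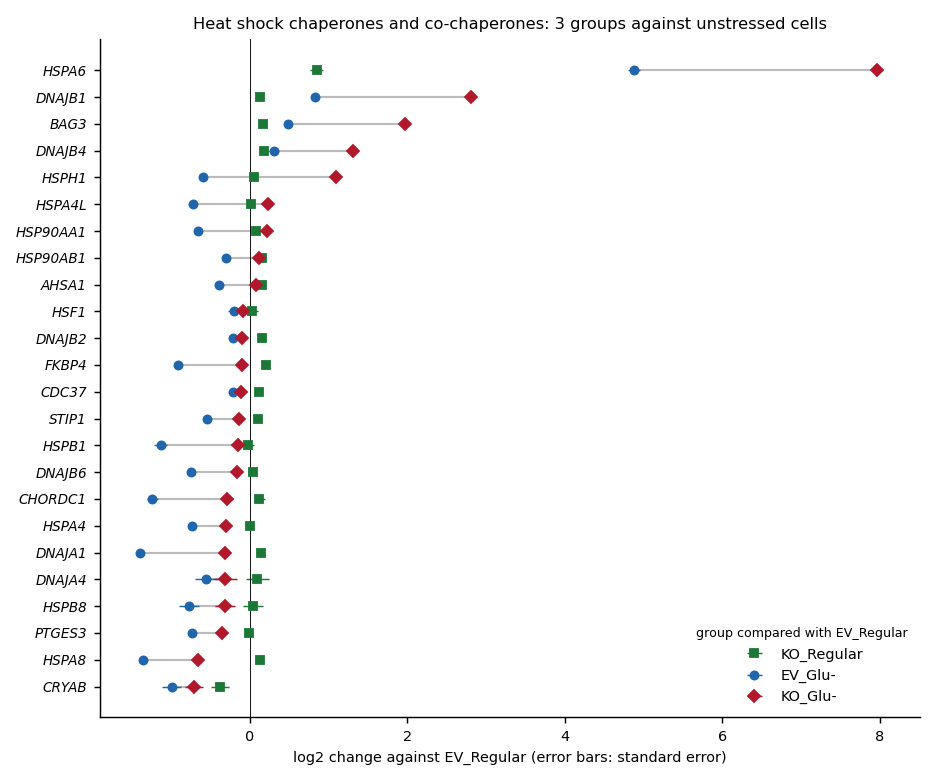
Log2 differences from the unstressed libraries for all 24 tested heat shock genes, in KO cells in regular medium, deprived EV cells and double-stressed cells, with bars for limma's SE. HSPA6, DNAJB1, BAG3 and DNAJB4 lie furthest right in double-stressed cells, and most other genes lie left of 0 in deprived EV cells and nearer to 0 in double-stressed cells.

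Targets of NRF2 rose almost as a whole, and most of them stood above every other group. Of 34 tested, 32 rose and 2 fell (the same 32 and 2 under ribosomal centring), with a median of 1.30 against -0.011 for all genes, and 21 rose at least 2-fold. The falls, named after their values were seen, were ABCC4 (-0.39) and the peroxiredoxin PRDX1 (-0.24). HMOX1 (chromosome 22, 35381096 to 35394207), which opens heme and frees its iron, had 9.31 and 9.80 CPM in unstressed, 42.3 and 39.7 CPM in KO regular, 278 and 259 CPM in deprived EV and 1104 and 1154 CPM in double-stressed libraries. Each stress stood above the unstressed pair and both together highest, with no overlap. The total of 6.88 ± 0.049 (adjusted p = 4.08e-14) compares with 2.10 for the knockout and 4.81 for deprivation, and the departure from their sum was -0.026 ± 0.069 (adjusted p = 0.858).

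The cystine importer gene SLC7A11 behaved otherwise. Its libraries read 48.2 and 49.3 CPM in unstressed, 179.8 and 194 CPM in KO regular, 351 and 364 CPM in deprived EV and 509.6 and 503 CPM in double-stressed cells. The double-stressed libraries were highest, but the total of 3.38 ± 0.041 (adjusted p = 1.48e-12) fell short of the sum of 1.94 and 2.87 by -1.44 ± 0.058 (adjusted p = 7.43e-07). NQO1, a quinone reductase, went from 108 and 108 CPM to 353 and 348 CPM (1.70 ± 0.031), and KO cells in regular medium already had 261 and 265 CPM. The ferritin light chain FTL, whose reads can be shared with pseudogenes, went from 366 and 354 CPM to 1473 and 1482 CPM (2.04). SQSTM1, the autophagy receptor p62 that also binds KEAP1, went from 338 and 338 CPM to 1538 and 1537 CPM (2.18). AKR1C1, an aldo-keto reductase with close paralogs, rose by 3.74, OSGIN1 by 2.61 and TRIM16L by 2.45. The list's share of all CPM was 0.369% in unstressed, 0.588% in KO regular, 0.673% in deprived EV and 1.04% in double-stressed cells. The KO regular median was 0.64 and the deprived EV median 0.82, from the same unstressed libraries. In the promoters, 8 of 26 NRF2 targets held an antioxidant core, against 2036 of 10461 genes tested (19.5%). The core was not particular to this list. It was in 12 of 32 ATF4 and CHOP genes, 7 of 21 heat shock genes and 4 of 16 cytosolic aminoacyl-tRNA synthetases.

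In the thioredoxin, peroxiredoxin and glutathione systems 22 of 37 genes rose and 8 fell (median 0.22), against 36.2% and 37.7% of all genes. Under ribosomal centring, however, 13 rose and 15 fell. Glutathione synthesis was among the risers, with the regulatory subunit GCLM of glutamate-cysteine ligase at 71.0 and 70.3 CPM in unstressed and 181 and 178 CPM in double-stressed libraries (1.35 ± 0.042). Its breakdown enzyme CHAC1 rose as well, from 10.8 and 10.2 CPM to 150.0 and 158 CPM (3.87 ± 0.048). SRXN1, sulfiredoxin, which repairs overoxidised peroxiredoxins, rose from 114 and 114 CPM to 302 and 289.6 CPM (1.38), and KO cells in regular medium had 210.2 and 211 CPM. The glutaredoxin GLRX rose by 2.13 and was as high in deprived EV cells (18.5 and 17.8 CPM against 16.8 and 16.3 CPM).

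Of 18 tested genes of NADPH production and the pentose phosphate pathway, 12 rose and 4 fell, against 36.2% and 37.7% of all genes. The median was 0.49, and under ribosomal centring 9 rose and 5 fell. The mitochondrial folate enzymes led, with ALDH1L2, which makes NADPH from formyl-folate, going from 12.5 and 11.8 CPM to 109.7 and 105 CPM (3.14 ± 0.046) and MTHFD2 from 127 and 126 CPM to 496 and 469 CPM (1.93 ± 0.041). ALDH1L2 was higher still in deprived EV cells, at 144 and 139 CPM. Cytosolic isocitrate dehydrogenase IDH1 rose by 1.24. Transaldolase TALDO1, of the pathway's non-oxidative arm, had 119.7 and 117 CPM in unstressed and 212 and 214 CPM in double-stressed libraries (0.85). PGD, of the oxidative arm, was at 0.90 and ME1, malic enzyme, at 1.23, both chosen after their values were seen. The falls, likewise chosen, were RPIA (-0.60), NADK (-0.23), NNT (-0.18) and RPE (-0.12). Of the risers 5 stood above every other group, against 2.97% of all genes, and 3 under ribosomal centring.

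ATF4 and CHOP stress genes rose by the largest median of any list examined here, 1.93, and 31 of 37 rose at least 2-fold. In all 35 rose and 2 fell, and the same numbers under ribosomal centring. The falls, named after their values were seen, were ATF5 (-0.97) and ALDH18A1 (-0.16). DDIT3 (chromosome 12, 57516588 to 57520517) had 17.4 and 17.6 CPM in unstressed, 19.3 and 19.0 CPM in KO regular, 435 and 417 CPM in deprived EV and 419 and 393 CPM in double-stressed libraries. Both deprived groups were high and overlapped, and both groups in regular medium were low. The total was 4.53 ± 0.042 (adjusted p = 1.82e-13). ATF4 mRNA, encoding the factor itself, went from 354 and 361 CPM to 896 and 862 CPM (1.30 ± 0.034). ASNS, asparagine synthetase, went from 79.4 and 78.8 CPM to 445 and 414 CPM (2.44 ± 0.042), with 452 and 431 CPM in deprived EV cells. TRIB3, a pseudokinase that ATF4 and CHOP induce, reached 554 and 602 CPM from 43.9 and 43.5 CPM, above the 524 and 497 CPM of deprived EV cells. CTH did likewise, at 56.3 and 55.6 CPM against 3.51 and 3.11 CPM in unstressed and 43.1 and 43.5 CPM in deprived EV cells. In total 13 members stood above every other group, 7 without EV deprived a or b or without double-stressed b. Deprived EV cells had a median of 1.82 and KO cells in regular medium 0.10.

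The promoter of ASNS is shown for its CARE core, TGATGNAA, the kind of site at which ATF4 binds with a partner. The entry is the first of 2 in RefSeq, on the same build, with the CARE core and an overlapping heat shock core in capitals.
ASNS, entry 1 of 2 (chr7:97872409-97872658, minus strand): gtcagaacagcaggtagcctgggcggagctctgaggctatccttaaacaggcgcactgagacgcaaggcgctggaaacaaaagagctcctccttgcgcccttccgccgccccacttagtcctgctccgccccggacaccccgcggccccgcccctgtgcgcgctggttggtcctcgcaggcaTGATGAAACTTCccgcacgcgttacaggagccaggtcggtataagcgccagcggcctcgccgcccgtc
The CARE core runs from -68 to -61 and the heat shock core from -64 to -57. Entry 2 of ASNS holds neither core. Of the ATF4 and CHOP list, 9 of 32 genes with a promoter held a CARE core and of the cytosolic aminoacyl-tRNA synthetases 7 of 16, against 290 of 10461 genes tested (2.77%). No core of these kinds was in the given windows of DDIT3 or TXNIP.

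The aminoacyl-tRNA synthetases, which charge tRNAs for translation, rose in 14 of 19 cases and fell in 3 (11 and 6 under ribosomal centring). Their median was 0.55, against 0.48 in deprived EV cells, and 36.2% of all genes rose and 37.7% fell. Of the 19 synthetases 0 stood above every other group, and 4 were lower and 1 higher than in deprived EV cells. AARS1, for alanine, went from 123 and 118 CPM to 604 and 579 CPM (2.30 ± 0.037), WARS1, for tryptophan, by 2.19, SARS1 by 1.56 and GARS1 by 1.36. Deprived EV cells had AARS1 at 670 and 644 CPM (2.45), and differences of 2.34 for WARS1, 1.67 for SARS1 and 1.34 for GARS1. The falls, named after their values were seen, were RARS1 (-0.35), FARSA (-0.31) and HARS1 (-0.19), so charging enzymes for different amino acids did not move alike.

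Every tested gene of the endoplasmic reticulum chaperone and unfolded protein response list, 31 of 31, rose in double-stressed cells, with a median of 1.79 and 29 of 31 called under ribosomal centring. HSPA5, the main HSP70 of that compartment, was among the most abundant mRNAs of the double-stressed cells, at 8152 and 7704 CPM against 975 and 958 CPM in unstressed libraries (3.04 ± 0.039, adjusted p = 1.73e-12). Deprived EV cells had 9041 and 8551 CPM and KO cells in regular medium 749.8 and 741 CPM. HSPA5 was therefore higher with deprivation in either cell type and lowest in KO cells in regular medium. HERPUD1 rose from 17.6 and 18.1 CPM to 403 and 428 CPM (4.54 ± 0.039) and DNAJB9, a co-chaperone of HSPA5, from 11.7 and 11.7 CPM to 126 and 134 CPM (3.47). XBP1, the transcription factor spliced by IRE1, reached 491 and 486 CPM from 70.8 and 70.2 CPM, above the 418 and 409 CPM of deprived EV cells, and was the 1 member above every other group. Against deprived EV cells the list leaned the other way, with 16 genes lower and 1 higher, where 10.6% of all genes were lower. KO cells in regular medium had 11 lower and 1 higher than unstressed cells, where 3.38% of all genes were lower. Its share of all CPM was 0.992% in unstressed, 3.07% in deprived EV and 2.76% in double-stressed cells.

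Of 7 tested glucose-sensing arrestins and their factors 1 rose and 5 fell, against 36.2% and 37.7% of all genes. The median was -0.22, and under ribosomal centring 1 rose and 6 fell. TXNIP (chromosome 1, 145992435 to 145996579), the arrestin that binds thioredoxin and whose transcription follows glucose through MondoA, had 85.5 and 87.1 CPM in unstressed, 77.3 and 81.9 CPM in KO regular, 11 and 9.91 CPM in deprived EV and 8.46 and 8.43 CPM in double-stressed libraries. Its difference of -3.35 ± 0.057 (adjusted p = 1.18e-11) was the largest fall among the genes named for size, and the call against deprived EV cells was lost without EV deprived a. ARRDC4, its relative, went from 6.49 and 6.07 CPM to 3.01 and 2.50 CPM (-1.19), whereas ARRDC3 went from 19.1 and 18.1 CPM to 49.1 and 47.5 CPM (1.38). MLXIP, the gene of MondoA, fell by 0.31 on the log2 scale, KLF10 changed by -0.20, ARRDC2 by -0.22, and MLX, the partner of MondoA, was at -0.092 (adjusted p = 0.0644).

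Of 25 glucose uptake and glycolysis genes 10 were higher and 11 lower (5 and 16 under ribosomal centring), near the 36.2% and 37.7% of all genes, with a median of -0.065. SLC2A3, the high-affinity glucose transporter GLUT3, rose from 4.72 and 4.66 CPM to 19.7 and 18.6 CPM (2.03 ± 0.062) and stood above every other group. Hexokinase HK2 rose by 0.54 and PFKFB2, which controls phosphofructokinase, by 0.65. Lactate dehydrogenase LDHA went from 1337 and 1310.1 CPM to 796 and 736 CPM (-0.79 ± 0.042). GAPDH was called higher by 0.19 as deposited but was at -0.042 under ribosomal centring.

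Immediate early genes, the fast transcriptional answer to growth and stress signals, included 20 of 28 that rose and 1 that fell. The median was 0.85, and 36.2% of all genes rose and 37.7% fell. Under ribosomal centring 17 rose and 5 fell, and without double-stressed b 3 fell, without KO regular a or b 2. The 1 fall, named after its values were seen, was FOSL2 (-0.17), another AP-1 subunit. FOS, an AP-1 subunit, had 3.91 and 4.11 CPM in unstressed, 3.63 and 2.99 CPM in KO regular, 12.6 and 12.2 CPM in deprived EV and 39.6 and 41.4 CPM in double-stressed libraries. The double-stressed libraries lay above the deprived EV ones without overlap (1.70 on the log2 scale), and the groups in regular medium were lowest. The total was 3.33 ± 0.088 (adjusted p = 2.98e-10). FOSB went from 4.31 and 3.81 CPM to 30.4 and 32.0 CPM (2.94) and DUSP1, a phosphatase of MAP kinases, from 7.8 and 7.40 CPM to 38.9 and 40.1 CPM (2.37). DUSP5, which acts on ERK, rose by 1.58. RGS2, a brake on G protein signalling outside the list, had 8.28 and 7.57 CPM in unstressed, 11.2 and 12.5 CPM in deprived EV and 35.2 and 36.7 CPM in double-stressed libraries (2.18). Of the list 15 stood above every other group, 9 without EV deprived b. The median was 0.35 in deprived EV cells and -0.019 in KO cells in regular medium.

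The ID genes, inhibitors of differentiation induced by BMP signals, moved in opposite directions. ID1 fell from 141 and 134 CPM to 18.5 and 25.8 CPM (-2.65 ± 0.12) and ID3 from 201 and 205 CPM to 27.0 and 33.2 CPM (-2.76 ± 0.1), and in deprived EV cells ID1 was at 14.4 and 14.9 CPM and ID3 at 21.0 and 25.7 CPM. ID2 had 15.6 and 16.4 CPM in unstressed, 13.3 and 13.8 CPM in KO regular, 10.1 and 10.8 CPM in deprived EV and 35.7 and 40.0 CPM in double-stressed libraries. Deprivation alone was called lower than the unstressed libraries (-0.61), the knockout alone was not (-0.24, adjusted p = 0.0568), and both together reached 2.36 times the unstressed level (1.24 ± 0.066, adjusted p = 5.10e-08). ID4 rose by 0.99 and HEY1, a Notch and BMP target, by 1.63. SMAD6, an inhibitory SMAD, fell by 2.29 and the decoy receptor BAMBI by 1.0 on the log2 scale, while SMAD7, called higher by 0.14, was at -0.089 under ribosomal centring. In all 4 of 9 rose and 5 fell, against 36.2% and 37.7% of all genes.

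Mitosis genes were lower in double-stressed cells, mostly below every other group. Of 40 tested, 33 fell and 1 rose (39 fell under ribosomal centring), with a median of -0.46, and 27 lay below every other group. CCNB1, the cyclin of mitotic entry, had 463 and 465 CPM in unstressed, 458 and 460.3 CPM in KO regular, 305 and 310.0 CPM in deprived EV and 250.1 and 231 CPM in double-stressed libraries. Groups in regular medium lay close together, and the double-stressed libraries were lowest (-0.95 ± 0.039, adjusted p = 7.09e-09). The kinase AURKA went from 367 and 372 CPM to 144 and 139 CPM (-1.38), the kinesin KIF20A from 409 and 408 CPM to 186 and 175 CPM (-1.18), PLK1 by -0.99 and the survivin gene BIRC5 by -1.0. PIF1, a helicase, and PSRC1, of the spindle, also lay below every other group (-0.84 and -0.94). The 1 riser, named after its values were seen, was the phosphatase CDC25C (0.23). The list's median was -0.23 in deprived EV cells and -0.023 in KO cells in regular medium, from the same unstressed libraries. In bulk RNA, fewer cells of a kind, here in mitosis, and less RNA per cell cannot be told apart.

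DNA replication and S phase genes fell for 30 of 46 members and rose for 3, against 37.7% and 36.2% of all genes. The median was -0.29, and under ribosomal centring 43 fell and 2 rose. Below every other group lay 2 of them, 1 without EV deprived a or b. Deprived EV cells had a lower median, -0.41, with 36 members called lower, against 38.7% of all genes in that comparison. MCM7, of the replicative helicase, went from 447 and 451 CPM to 292 and 280.3 CPM (-0.65), and MCM6 from 206 and 197 CPM to 128 and 127 CPM (-0.66), above the 112 and 112 CPM of deprived EV cells. UNG, which removes uracil from DNA, fell by 0.88 on the log2 scale. CDC6, which loads the helicase, went the other way, from 116 and 116 CPM to 285 and 269 CPM (1.25 ± 0.041). The other risers, named after their values were seen, were RFC1 (0.54) and RPA3 (0.20). The cell cycle inhibitor CDKN1A, p21, rose from 114 and 119 CPM to 199.6 and 205 CPM (0.79).

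Ribosomal protein mRNAs were slightly higher as deposited and their assembly factors lower. Over all genes 36.2% were called higher and 37.7% lower, and the falls among the respiratory chain genes below were near that share. The list of 77 cytosolic ribosomal proteins had 62 genes higher, 3 lower and a median of 0.23, a direction that ribosomal centring removes by construction (17 and 20), and their share of CPM was 3.62% in unstressed and 4.16% in double-stressed cells. RPL3 went from 1007 and 1013 CPM to 1488 and 1414 CPM (0.52) and RPLP1 from 792 and 822 CPM to 1052 and 1041 CPM (0.38). Falls, named after their values were seen, were RPS26 (-0.63), RPL17 (-0.32) and RPS10 (-0.12). Ribosome biogenesis and RNA polymerase I genes fell for 25 of 36 members (33 under ribosomal centring) and rose for 3, with a median of -0.36. The risers, named after their values were seen, were TAF1D (0.19), GNL3 (0.19) and POLR1B (0.12), all smaller than the ribosomal shift, and numbered 1 without unstressed a or without double-stressed a. DKC1, the pseudouridine synthase of small nucleolar particles, went from 239 and 243 CPM to 151 and 142 CPM (-0.72), the nucleolar factor NOP56 by -0.54 and the polymerase subunit POLR1A by -0.57. Of 30 proteasome subunits 15 fell (29 under ribosomal centring), with a median of -0.11, led by PSMD2 of the regulatory particle (592 and 589 CPM to 413 and 410.5 CPM, -0.52). The 1 proteasome riser, PSMD4, named after its values were seen, was at 0.31, and risers numbered 4 without double-stressed b, 2 without KO regular a or b and 3 with median-of-ratios scaling. Nuclear-encoded respiratory chain genes had 7 of 48 higher and 19 lower (1 and 42 under ribosomal centring, 12 lower without unstressed a) and a median of -0.068, with the Rieske protein gene UQCRFS1 at -0.56 and NDUFB5 at 0.34.

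Lists of cell death and p53 genes held both rises and falls, as did all genes (36.2% and 37.7%). Of 23 p53 targets 11 rose and 8 fell, with 6 and 12 under ribosomal centring, and the median was 0.096. In deprived EV cells the p53 median was 0.41. Against those cells 8 targets were lower and 2 higher, where 10.6% and 9.04% of all genes were. Of 16 BCL2 family and TRAIL receptor genes 7 rose and 7 fell (6 and 9 under ribosomal centring), with a median of -0.11. Several risers promote apoptosis. PMAIP1, NOXA, had 69.0 and 67.0 CPM in unstressed and 138 and 134 CPM in double-stressed libraries (1.00 ± 0.043), above every other group. BBC3, PUMA, went from 2.60 and 2.41 CPM to 7.35 and 8.70 CPM (1.67), BMF from 4.71 and 5.22 CPM to 13.0 and 12 CPM (1.33) and the TRAIL receptor TNFRSF10B, DR5, from 179.8 and 178 CPM to 291 and 296 CPM (0.72). Falls, chosen after their values were seen, included the pro-apoptotic BAK1 (-0.67) and BOK (-0.86) and the protective BCL2L1 (-0.58) and BCL2 (-0.41), while MCL1, also protective, was called higher by 0.087 as deposited. AEN, a nuclease gene that p53 induces, fell by 0.51 on the log2 scale.

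Actin cytoskeleton, focal adhesion and WAVE complex genes, whose proteins are the best-known carriers of disulfides in disulfidptosis, were mostly lower in mRNA. Of 38 tested 26 fell and 5 rose, or 33 and 2 under ribosomal centring, against 37.7% lower and 36.2% higher over all genes as deposited. The median was -0.25, and deprived EV cells had -0.23. ACTB had 8018 and 8066 CPM in unstressed, 4956 and 5112 CPM in deprived EV and 4711 and 5014 CPM in double-stressed libraries (-0.73 ± 0.043). The 2 deprived groups overlapped below the unstressed libraries. ACTG1, its near copy with which reads may be shared, went from 4989 and 5009 CPM to 4026 and 4004 CPM (-0.32), lowest in the double-stressed libraries. Tropomyosin TPM1 went from 1209 and 1212 CPM to 595 and 587 CPM (-1.03 ± 0.031), the crosslinker ACTN1 by -0.60 and paxillin, PXN, by -0.54. The risers, named after their values were seen, included the WAVE complex genes WASF2 (0.48), ABI1 (0.42) and NCKAP1 (0.28), along with DSTN (0.17) and PDLIM1 (0.16), which are smaller than the ribosomal shift.

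In these cells, which carry the TAZ(4SA) construct in every group, YAP/TAZ targets fell for 17 of 25 members and rose for 4. Of all genes 37.7% fell and 36.2% rose. The list's median was -0.28, and under ribosomal centring 20 fell and 2 rose. CCN2, a matricellular protein and a standard readout of TAZ, had 108 and 109 CPM in unstressed, 127 and 130.3 CPM in KO regular, 69.0 and 72.6 CPM in deprived EV and 67.8 and 68.0 CPM in double-stressed libraries. It was lower in both deprived groups and highest in KO cells in regular medium (-0.67 ± 0.037 for the double stress). CRIM1, a cell surface BMP antagonist, went from 299.9 and 305 CPM to 169 and 167 CPM (-0.84) and WWC1, KIBRA, by -1.07. The other risers, named after their values were seen, were IGFBP3 (1.67), DLC1 (0.15) and MYOF (0.085). GADD45B, a stress gene that is on this list and on that of immediate early genes, rose from 23.7 and 23.4 CPM to 57.9 and 67.1 CPM (1.40), above every other group.

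Other lists held single genes with large changes, where 36.2% of all genes were called higher and 37.7% lower. In deprived EV cells the NF-kB median was 0.54 and that of autophagy and lysosome genes 0.23. The median of cholesterol and fatty acid synthesis genes was 0.13 there. Clock genes had a median of 0.34 there, against 0.31 in double-stressed cells. Of 23 NF-kB and secreted inflammatory genes 15 rose and 4 fell (14 and 8 under ribosomal centring), with a median of 0.54. PTGS2, cyclooxygenase 2, went from 2.77 and 2.82 CPM to 41.4 and 38.4 CPM (3.83), VEGFA, the angiogenic factor, from 44.6 and 43.7 CPM to 259.9 and 265 CPM (2.57), and the chemokine CXCL8 from 37.7 and 35.1 CPM to 189 and 173 CPM (2.32). The falls, named after their values were seen, were TNFAIP2 (-0.72), IL11 (-0.67), NFKBIA (-0.24) and NFKB1 (-0.22), the last pair encoding an inhibitor and a precursor of NF-kB. Of 35 autophagy and lysosome genes 24 rose and 4 fell (16 and 11 under ribosomal centring, with 1 fall without unstressed a or b and 2 without double-stressed b), by a median of 0.26. WIPI1 went from 13.9 and 14.5 CPM to 115 and 107 CPM (2.97), GABARAPL1 by 2.01 and MAP1LC3B, LC3B, by 1.54, while the falls, named after their values were seen, were ATG5 (-0.30), ATG9A (-0.12), BECN1 (-0.12) and GABARAPL2 (-0.11). Of 31 cholesterol and fatty acid synthesis genes 13 rose and 12 fell (10 and 17 under ribosomal centring, 7 falls without unstressed a), near the 36.2% and 37.7% of all genes, with a median of 0.014. STARD4, which moves sterols, rose by 1.49, INSIG1 by 1.03 and HMGCS1 by 0.70. Of 17 clock genes 13 rose and 2 fell (7 and 4 under ribosomal centring), led by NFIL3 (9.32 and 9.16 CPM to 53.1 and 51.3 CPM, 2.50), a repressor of clock output. NR1D1, REV-ERB alpha, rose by 1.14 and PER1 by 0.86, and the falls, named after their values were seen, were CRY1 (-0.36) and CLOCK (-0.19).

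**Figure D4:**
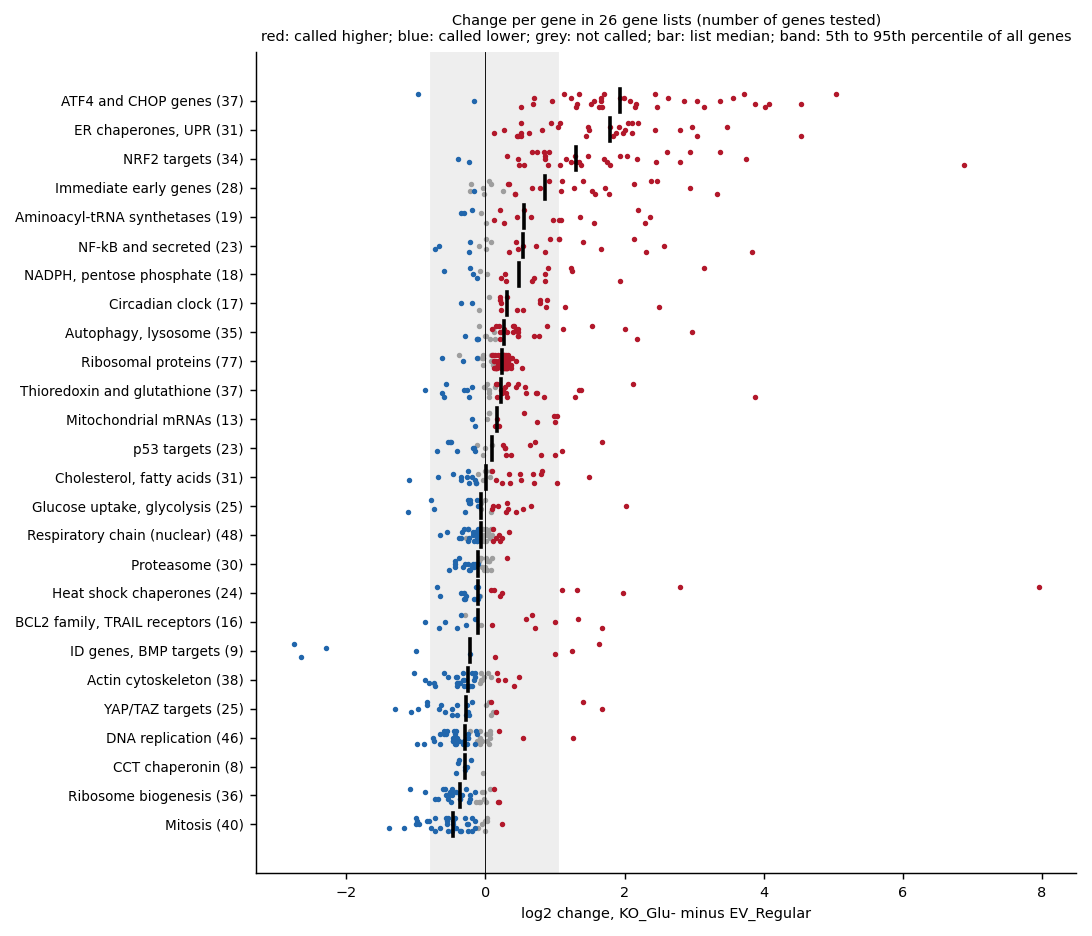
Log2 differences, double-stressed minus unstressed, of every tested gene of 26 lists (points), with the list medians as bars and the band from the 5th to the 95th percentile of all genes, -0.79 to 1.04. ATF4 and CHOP, endoplasmic reticulum and NRF2 lists lie to the right with medians of 1.93, 1.79 and 1.30, and the mitosis list lies furthest left of the larger lists at -0.46, while single genes such as HSPA6 lie far outside their list's median.

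Among called genes with non-overlapping libraries and a mean of at least 10 CPM in the higher group, the deepest falls were those of TXNIP, ID3, ID1 and SMAD6, followed by genes outside the lists. NOXO1, an organiser of NADPH oxidase 1, had 18.6 and 18.8 CPM in unstressed and 3.58 and 4.43 CPM in double-stressed libraries (-2.23). RHOJ, a small GTPase, went from 91.8 and 92.5 CPM to 21.2 and 22.0 CPM (-2.09 ± 0.04) and the noncoding LINC00707 from 63.6 and 63.7 CPM to 15.2 and 14.8 CPM (-2.08). ATOH8, a bHLH factor, fell by 2.06 on the log2 scale and the adaptor gene DOK3 by 2.05. AMH was at -2.01 and PGAM2 at -1.96. Falls were larger in deprived EV cells for ID1 (-3.22), ID3 (-3.13), SMAD6 (-2.69), NOXO1 (-2.64), DOK3 (-2.29), AMH (-2.30) and PGAM2 (-2.11). Of these, ID1, ID3 and NOXO1 were called higher in double-stressed than in deprived EV cells. Falls were smaller in deprived EV cells for TXNIP (-3.04), RHOJ (-1.87), LINC00707 (-1.86), ATOH8 (-1.66) and SOX2 (-1.72). SOX2 had 54.3 and 56.0 CPM in unstressed, 39.5 and 38.0 CPM in KO regular, 16.9 and 16.7 CPM in deprived EV and 15.1 and 15.2 CPM in double-stressed libraries (-1.86 ± 0.045), lowest in value with both stresses. Another glial lineage factor, OLIG2, rose from 6.0 and 6.39 CPM to 15.4 and 16.9 CPM (1.38), and the intermediate filament nestin, NES, fell by 0.85 on the log2 scale. The most abundant mRNAs included FN1, fibronectin, at 7145 and 7179 CPM in unstressed and 10542 and 10183 CPM in double-stressed libraries (0.53). Transcripts that rose without any list included BEST1, a chloride channel (3.76, with 4.04 in deprived EV cells). Among the epithelial markers the splicing factor ESRP1 went from 0.354 and 0.607 CPM to 6.19 and 5.85 CPM. All 4 tested epithelial markers were called higher (2 under ribosomal centring), while KRT18 was at -0.0089 under ribosomal centring. The summed level of the epithelial markers was 199 and 202.5 CPM in unstressed and 238.3 and 242 CPM in double-stressed libraries, and its part in the results was not tested.

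To ask which genes were extreme in double-stressed cells, they were tested against each of the other 3 groups. Limma called 388 genes above every other group (2.97%) and 443 below (3.39%), all 3 adjusted p-values being under 0.05. Without EV deprived a or b these numbered 200 and 192 above and 161 and 130 below, and without unstressed a or b or double-stressed b 280, 281 and 265 lay below. NRF2 targets were above in 28 of 34 cases, immediate early genes in 15 of 28 and heat shock genes in 7 of 24, while 27 of 40 mitosis genes were below. By the smallest of the 3 differences HMOX1, HSPA6, DNAJB1, BAG3, FOS and RGS2, described above, led the genes above, and those below were led by KIF20A, PSRC1, PIF1, TNFAIP8L1, the nuclear envelope gene SUN2 and NEURL1B. SUN2 had 287 and 288 CPM in unstressed, 281 and 258 CPM in KO regular, 243 and 249.9 CPM in deprived EV and 183 and 185 CPM in double-stressed libraries (-0.64). TNFAIP8L1 had 45.3 and 44.0 CPM in unstressed and 22.2 and 22.1 CPM in double-stressed libraries (-1.01).

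The total change was also set against the sum of the single changes on the log2 scale, the interaction. It was called positive for 301 genes (2.31%) and negative for 262 (2.01%), and under ribosomal centring for 2316 and 94. These counts rest on single libraries. The positive ones numbered 122 and 102 without EV deprived a or b, 102 and 117 without unstressed a or b, and 889 without double-stressed a. The negative ones numbered 54 and 60, 45 and 66, and 690 in the same order, 139 without double-stressed b, 162 without KO regular a and 445 without KO regular b. For most genes the total thus did not differ from the sum by more than the test could show, with a median size of departure of 0.10.

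Heat shock genes exceeded the sum in 19 of 24 cases, 17 to 19 with any library left out. HSPA6 did so by 2.24 ± 0.11 (adjusted p = 2.44e-06), the single changes being 0.85 and 4.88. DNAJB1 did by 1.84 ± 0.052 (adjusted p = 4.47e-08) on single changes of 0.14 and 0.83, HSPH1 by 1.63 and BAG3 by 1.32. Of 28 immediate early genes 12 exceeded the sum, with FOS at 1.98 ± 0.12 and DUSP1 at 1.44. ID2 exceeded it by 2.09 ± 0.094, as did 7 of 9 genes of its list, or 4 without EV deprived a or unstressed b and 3 without unstressed a. NRF2 targets fell short of the sum in 8 of 34 cases, by -1.44 for SLC7A11, -0.92 for TRIM16L, -0.85 for OSGIN1 and -0.47 for NQO1, and the pseudogene NMRAL2P by -2.55 ± 0.15. Mitosis genes, most of which fell, had a negative departure in 19 of 40 cases, so that the total lay below the sum, as for CCNB1 (-0.95 against -0.014 and -0.59). These cases numbered 6, 5, 5 and 7 without EV deprived a, EV deprived b, unstressed a or unstressed b and 11 under ribosomal centring.

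**Figure D5:**
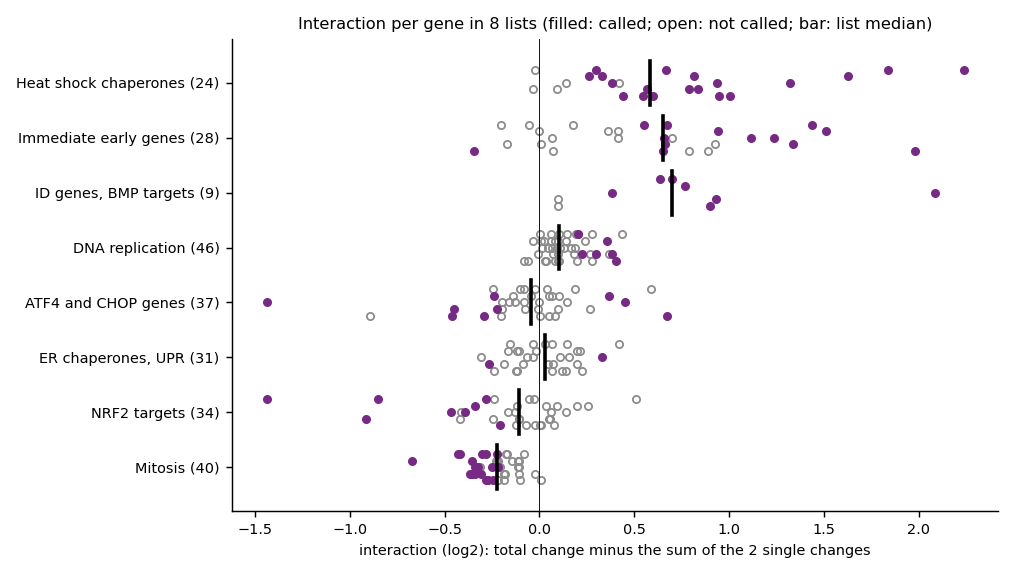
Departure of the double-stress change from the sum of the single changes (log2) for every tested gene of 8 lists, with filled points for genes called at an adjusted p under 0.05. Heat shock genes lie to the right of 0 with a median of 0.58 and HSPA6 furthest at 2.24, and NRF2 targets reach left to -1.44 for SLC7A11.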

How the data were processed

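RNA-seq was made from 8 libraries of total RNA extracted with TRIzol and turned into libraries with SMART-Seq mRNA and Nextera XT reagents, per the labels' protocols. These do not keep the strand, and reads of a gene and an overlapping or antisense one may be mixed. The authors used HISAT2, edgeR and GRCh38 (no versions given), per the submitters' processing notes. The counting tool, annotation and any gene filter are not given in the sources used here. The authors deposited log2 CPM values for 13730 genes by Entrez ID (82 without a symbol). That scale was read from the values: 2 to the power of a value, less an offset of 0.023 CPM, was a whole multiple of the worth of 1 read, within a tolerance of 0.05, for 100% of genes in each library. Printed CPM have that offset removed, and log2 differences keep it, which understates changes of the lowest genes. Column headers give the group but no replicate number. Since the deposited unit was log2, a count model was not used as the main test.

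A single fit with limma 3.58.1 (R 4.3.3) and a variance trend covered the 4 groups, with 4 residual and 6.29 prior degrees of freedom. Tests are two-sided, adjusted by Benjamini-Hochberg over 13057 genes, and called at an adjusted p under 0.05, and the median SE of the double-stress difference was 0.055. The ± after a log2 difference is limma's SE. The steps were tested on simulated reads. Members of the 32 lists and the genes named were chosen with earlier results of these data known. Some of these genes are counted in their lists but not reported here by name. The text names a panel of 16 genes, the 12 called genes that rose most and the 12 that fell most (libraries not overlapping, higher group at least 10 CPM), from each list the called genes of smallest adjusted p, at most 4, all members of lists of up to 10 genes, the 6 largest interactions in each direction, the 6 genes furthest above and below every other group, and the 6 most abundant genes of each group. The largest interactions and the genes furthest above and below were picked among called genes with at least 10 CPM in the highest group. Any other gene is said to be chosen after its values were seen. List entries matched the table for 813 of 863, and the RefSeq gene table, which gave coordinates on GRCh38.p14, held 13646 of the IDs. Alternatives were another filter, scaling, prior, variance model or threshold, limma voom on recovered reads, only the 2 groups compared, and leaving out each library. Intervals cover the spread between libraries only.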

Additional observations from a re-analysis of the deposited data

Results flagged for a closer look

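The test of the total change against the sum of the single changes was read for the panel genes and the genes named for the largest departures. The latter were picked among genes already called by this test, so that their calls were fixed in advance. Of the genes read 17 were called, where 563 of all 13057 were, and for these the knockout's effect differed between the media. Since the second group was named for the size of its departure, its values are a description. Above the sum were HSPA6 (2.24), ID2 (2.09), FOS (1.98), IER5L (1.84), DNAJB1 (1.84), HSPH1 (1.63) and BAG3 (1.32). Below it were NMRAL2P (-2.55), SLC7A11 (-1.44), CNOT3 (-1.16), TRIM16L (-0.92), OSGIN1 (-0.85), LINC01583 (-0.76), NQO1 (-0.47), TXNRD1 (-0.39), CCNB1 (-0.34) and ATF4 (-0.29), all on the log2 scale from limma.

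IER5L, an immediate early gene relative, rested on libraries that differed within a group, with 7.54 and 17.1 CPM in double-stressed and 13.7 and 11.9 CPM in unstressed cells, and its total of -0.17 had an adjusted p = 0.618. CNOT3, of the mRNA deadenylation complex, had 6.72 and 8.36 CPM in double-stressed and 10.6 and 8.02 CPM in KO regular libraries. LINC01583 was higher in deprived EV cells (17.4 and 16.6 CPM) than in double-stressed cells (9.67 and 10.5 CPM), against 1.06 and 1.2 CPM in unstressed cells. TXNRD1 was highest in deprived EV cells.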

How the results depend on the processing

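Centring on ribosomal protein genes lowered every double-stress difference by 0.23 and gave 2716 genes higher and 7420 lower. Interactions were raised by another amount, and were positive for 2316 genes and negative for 94. Both shifts arise because the centring moves all genes of a library alike. It turned SMAD7 (-0.089), KRT18 (-0.0089), DLG4 (-0.012) and GAPDH (-0.042), whereas median-of-ratios scaling shifted differences by -0.0088. Without the variance trend 152 interactions were positive and 71 negative. At an adjusted p under 0.01 these were 108 and 62, with 198 genes above and 168 below every other group, from the stricter threshold itself. With 1 library left out, 4162 to 4837 genes were higher and 4347 to 5032 lower, 102 to 889 interactions were positive and 45 to 690 negative, and 192 to 424 genes lay above and 130 to 506 below every other group. The cause was not tested, beyond the fewer libraries. Over 18 other settings the log2 differences of 171 named genes lost a call in 18 of 2889 gene and setting pairs, gained one in 9 and turned in 4. The lost calls were of 7 genes, ARRDC2, SMAD7, KRT8, LUM, DLG4, SNAP25 and CNOT3. Interactions lost a call in 174 of 2718 pairs, gained one in 63 and turned in 0.

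No paired analysis was possible because the column headers carry no replicate numbers. With 2 libraries a group the spread is shared over 4 groups, and a group left with 1 library is assumed to vary like the others. Depth limits only the lowest genes, since 1 read was worth at most 0.0143 CPM.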

Other observations

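Mitochondrially encoded mRNAs, which encode subunits of the respiratory chain and ATP synthase, took 2.66% and 2.79% of all CPM in unstressed libraries. They took 4.03% and 3.80% in double-stressed libraries, with no overlap between these groups. Deprived EV libraries, at 3.905% and 3.937%, overlapped the double-stressed ones, and KO regular libraries had 2.77% and 2.85%. Of 13 tested 8 rose and 2 fell (median 0.16, with 0.097 in deprived EV cells), where 36.2% of all genes were higher and 37.7% lower. Under ribosomal centring 5 rose and 6 fell. COX2, here the mitochondrial oxidase subunit, went from 2453 and 2601 CPM to 5486 and 4879 CPM (1.03 ± 0.052), ND4 from 4808 and 5075 CPM to 10207 and 9484 CPM (0.99) and COX1 from 5124 and 5395 CPM to 9168 and 8486 CPM (0.75). The falls, named after their values were seen, were ND2 (-0.19) and COX3 (-0.16), so these genes of a shared transcript moved unequally. Leaving all 13 out of the library totals is among the settings above.

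Small nucleolar RNAs, which guide the modification of ribosomal RNA, were the transcript class with the most uneven split among classes of at least 10 genes. Of 26 tested 21 fell, with a median of -0.74, against 4608 of 12018 protein-coding genes. Most are processed from the introns of host genes, and reads of the RNA itself and of an unspliced host cannot be told apart here. The libraries were made with mRNA reagents, and how well these capture small nucleolar RNAs was not tested. Chosen after their values were seen, SNORA73A had means of 8.34 CPM in unstressed and 1.74 CPM in double-stressed cells (-2.24, limma adjusted p = 3.57e-08), and SNORD80 5.75 and 1.99 CPM (-1.52). Of 15 host genes 9 rose and 4 fell, against 36.2% and 37.7% of all genes, or 6 and 6 under ribosomal centring. SNHG3, the host of SNORA73A, fell from 132 and 134 CPM to 41.8 and 39.0 CPM (-1.72 ± 0.042), whereas ZFAS1 rose by 0.66 and GAS5, the host of SNORD80, went from a mean of 89.0 to 124 CPM (0.48). Among markers of neurons, which a glioma line could resemble, SYT1 went from 14.8 and 16.3 CPM to 48.7 and 47.6 CPM (1.63), and of 4 tested 2 rose and 1 fell (1 and 2 under ribosomal centring).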
